A study of Mus musculus with 6 samples.

Results

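The clustered histone genes encode the core histones H2A, H2B, H3 and H4 and the linker histone H1. They were chosen as the protein-coding genes whose symbols follow the cluster naming (Hist1h and its relatives, H2ac, H2bc, H3c, H4c, and H1f followed by a digit from 0 to 6), and 65 of the 55487 genes in the deposited table met that rule. Bulk RNA sequencing covered marginal zone (MZ) B cells, the innate-like B cells at the border of the splenic white pulp, which had been enriched by negative selection and then flow-sorted. There were 3 libraries from CD55KO mice and 3 from WT C57BL/6 mice, all 14 weeks old. CD55KO mice lack decay-accelerating factor, a membrane protein that limits complement activation. The labels do not say how the allele was made, on which background it was kept, or whether each library came from its own animal, so p-values measure the spread between these 6 libraries.

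Most core histones are made in S phase, when new DNA has to be packed into nucleosomes. An octamer of H2A, H2B, H3 and H4 wraps the DNA, and H1 sits where the DNA enters and leaves. Genes of the clusters are short, mostly have no intron, and give messages that usually end in a stem-loop bound by SLBP in place of a poly(A) tail. Many variant histones encoded outside the clusters are made throughout the cell cycle from ordinary polyadenylated messages. The library kit named in the labels primes cDNA synthesis from poly(A) tails, and what share of each histone message carried one was not measured.

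The 65 genes comprised 7 of H1, 17 of H2A, 17 of H2B, 12 of H3 and 12 of H4. In GENCODE M21 (mouse build GRCm38), 54 of them lay on chromosome 13 between positions 21715763 and 23934851, 10 on chromosome 3 between 96219865 and 96270132, and H1f0, a linker histone gene of no cluster, on chromosome 15. Counts were present for 62 genes, and 48 were above 0 in every library. H2ac1, H2bc1 and H3c14 were at 0 in all 6. A count filter left 43 genes for testing, which held 99.0% of the family's counts: 6 of H1, 13 of H2A, 12 of H2B, 5 of H3 and 7 of H4. Of the 22 untested genes, 6 held 30 counts or more over the 6 libraries (H3c11, H2bc9, H2bc7, H2bc13, H4c2 and H3c2, between 37.8 and 70.7 counts), and 13 held from 1 to 26.9 counts. Among these low genes, counts often sat in 1 library: the 11.1 counts of H4c12 and the 11.4 of H3c10 came from WT replicate 1 alone.

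Levels are given as CPM, the share of a library's counts scaled between libraries by edgeR's TMM method. Library totals ran from 20056111 to 30784090 counts, and the 65 genes took from 0.0265 to 0.0434% of them, the highest share in WT replicate 1. Cd55, the targeted gene, had 244, 154 and 212 counts in the CD55KO libraries and 2580, 3715 and 3096 in the WT libraries. All 10 MZ B cell markers were tested and none was called. The defining Cr2, the complement receptor CD21, had 1084 ± 75.6 against 1081 ± 44.5 CPM, and Cd1d1 397 ± 30.9 against 396 ± 24.6 CPM. The smallest p were those of Notch2, the receptor needed for MZ B cells, which was at 361 ± 12.3 against 298 ± 25.1 CPM without overlap (adjusted p = 0.283 for a log2 fold change of 0.28 ± 0.09 SE), and Dtx1, at 623 ± 13.6 against 574 ± 40.0 CPM (adjusted p = 0.769 for a log2 fold change of 0.12 ± 0.08 SE). WT replicate 1 stood apart: a list of 36 S phase and mitosis genes had a mean of 4.46 log2 CPM there and 3.61 to 3.82 in the other 5 libraries. Erythroid genes summed to 4407 CPM in that library and to 368 and 115 CPM in WT replicates 2 and 3. In CD55KO replicates 1 to 3 they summed to 2011, 1613 and 44.7 CPM, so they varied widely within both genotypes. The part of these differences in the histone values was not tested.

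Between genotypes, 1 histone gene passed the test. H2bc4, which encodes a replication-type H2B, was lower in CD55KO at 54.2% of its WT level (95% interval 44.0 to 66.8%). Its level was 42.3, 56.7 and 48.6 CPM in the CD55KO libraries and 108, 85.2 and 79.3 CPM in the WT libraries. The highest CD55KO library lay below the lowest WT library, and the raw counts of 1153, 1402 and 1388 against 2225, 2669 and 2232 did not overlap either. The means were 49.2 ± 7.24 and 90.9 ± 15.2 CPM (SD, n = 3 each; edgeR's quasi-likelihood test with Benjamini-Hochberg adjustment over 13794 genes gave an adjusted p of 0.0252 for a log2 fold change of -0.88 ± 0.13 SE). The call depended on which libraries entered the fit. It was lost on leaving out CD55KO replicate 1 (-0.78, with an adjusted p of 0.0644), CD55KO replicate 3 (-0.88, with 0.144) or WT replicate 2 (-0.93, with 0.0616). It was kept without WT replicate 1 (-0.74, adjusted p = 0.00385), the library that stood apart, and with the mean of the S phase and mitosis genes as a covariate (-0.70, adjusted p = 0.00595). That mean was 4.46 log2 CPM in WT replicate 1 and 3.61 to 3.82 in the others, so these fits are not separate checks. The part of cell division in the difference was not tested.

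The count of 1 in 43 stands against 55 of 13794 genes called in either direction (0.399%), of which 36 were lower in CD55KO (0.261%). At an unadjusted p under 0.05, the test found 3 histone genes (H2bc4, H2ac13 and Hist1h2ao, all lower in CD55KO), or 6.98% of those tested against 8.6% of all genes. Libraries of the genotypes did not overlap for 7 histone genes, 5 lower and 2 higher in CD55KO, which is 16.3% against 14.1% of all genes. Log2 fold changes were negative in 27 of 43 (62.8%) against 49.6% of all genes tested, and their median was -0.10 against 0.00 for all genes. These 2 measures turned with WT replicate 1. Without it, 18 of 45 tested histone genes were negative and the median was 0.03.

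**Figure D1:**
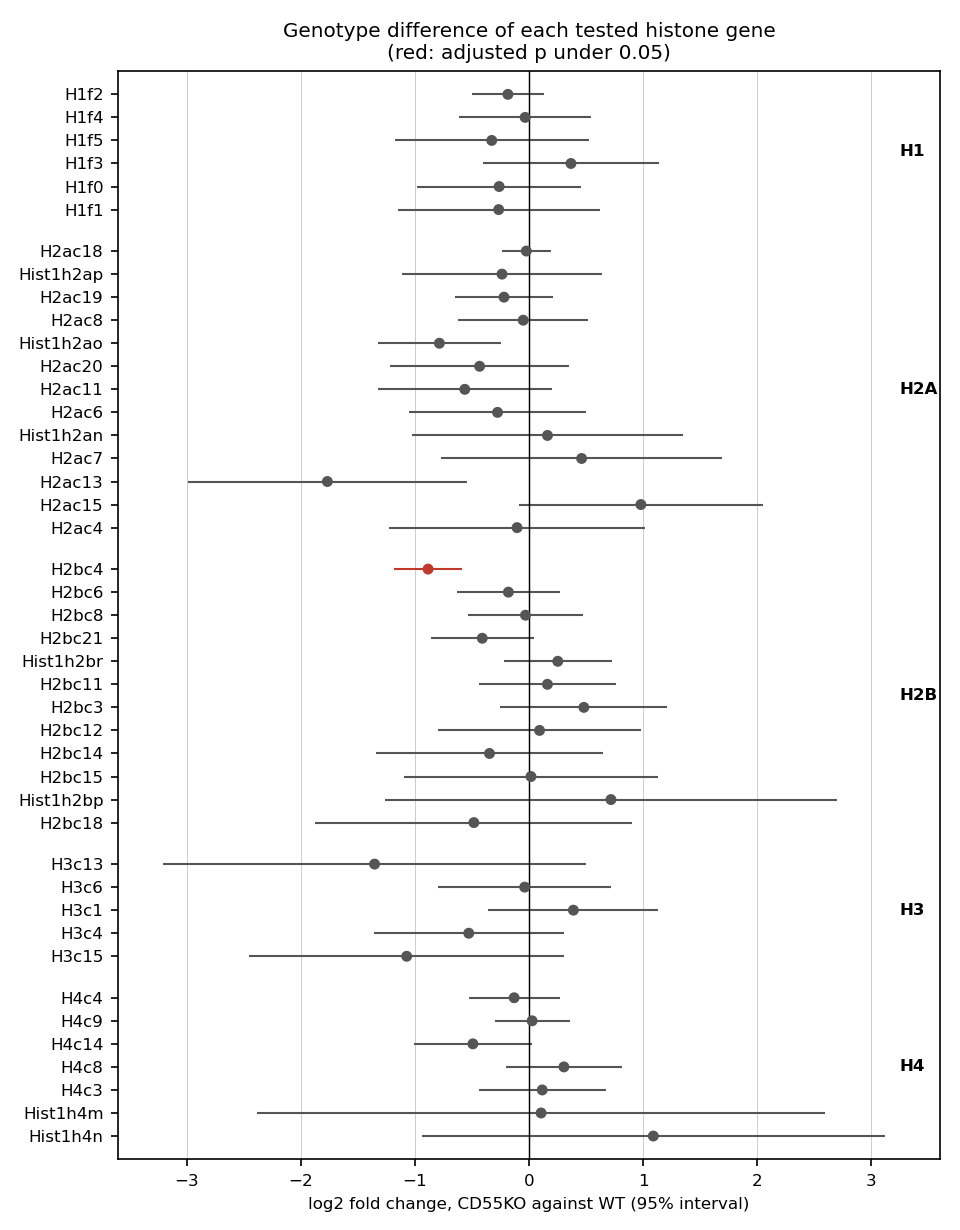
Log2 fold change of CD55KO against WT for the 43 tested histone genes (x axis, points) with 95% intervals (lines), by histone class and, within a class, from the highest level to the lowest. H2bc4, in red, is the gene with an adjusted p under 0.05, and the intervals of 40 of the other 42 genes include 0.

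Precision differed widely between the genes. The median half-width of the 95% interval of the other 42 genes was 0.76 on the log2 scale, and for 21 of them the interval included the -0.88 of H2bc4. For these 21 genes a difference as large as that of H2bc4 was thus within the interval. The interval was narrow for H2ac18 (-0.24 to 0.19), H4c9 (-0.30 to 0.36) and H1f2 (-0.50 to 0.13). All 3 are among the more abundant histone genes. The smallest adjusted p of the other 42 genes was 0.318.

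**Figure D2:**
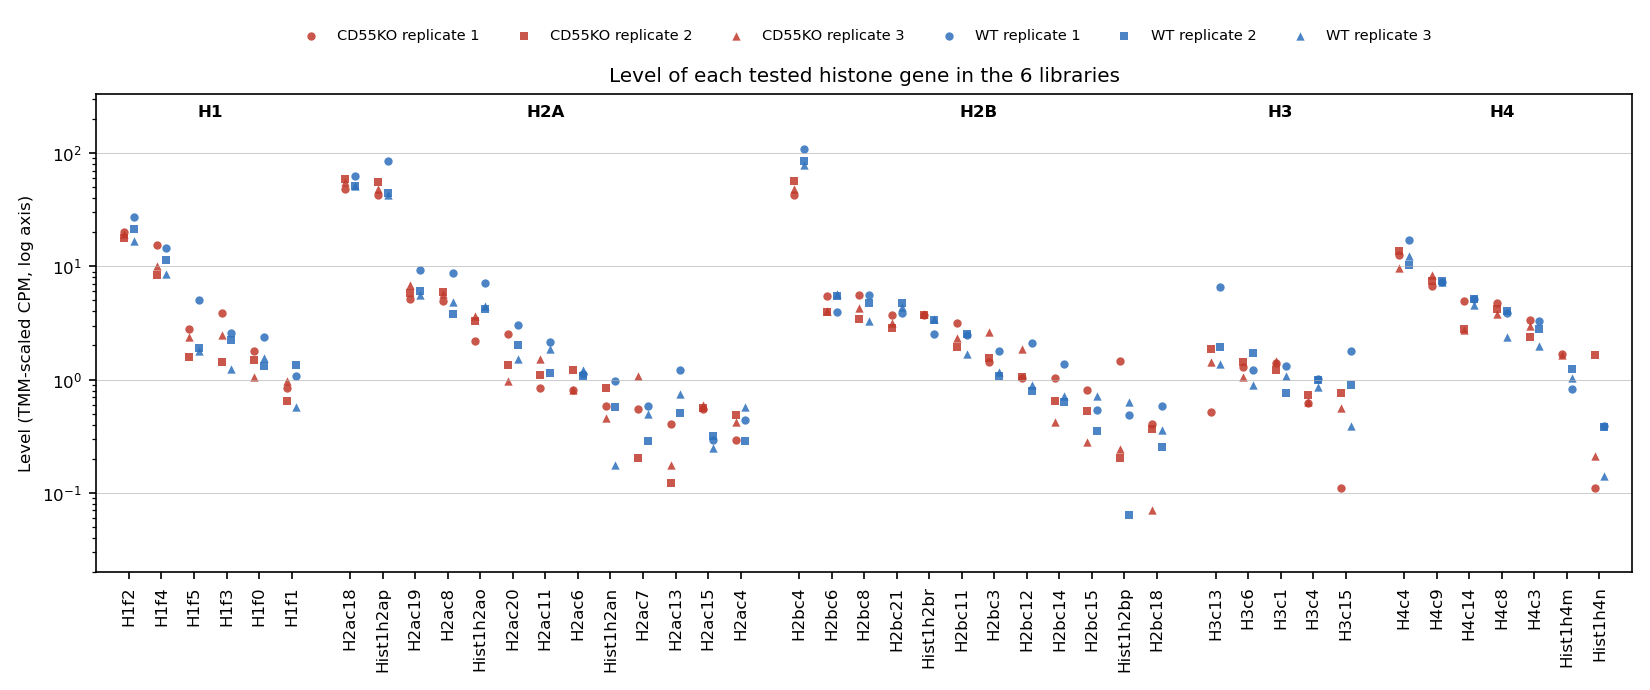
Level of the 43 tested histone genes in each library (TMM-scaled CPM, log axis), CD55KO in red and WT in blue, with 1 symbol per replicate. H2bc4, H2ac18 and Hist1h2ap stand above the rest, H2bc4 separates by genotype, and the 0 of Hist1h4m in CD55KO replicate 2 cannot be drawn on this axis.

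Near-identical coding sequences limit how well many of these genes can be told apart. The first 120 coding bases are shown for H2bc4 (chr13:23684232-23684351, plus strand), the histone gene with the most counts. Beside them stand those of H2bc8 (chr13:23571433-23571552, plus strand), the histone gene with which H2bc4 shared the most 50-base windows. The third gene is H2bc21 (chr3:96221166-96221285, plus strand), which shared no 50-base window with any other gene. Capitals mark bases that differ from H2bc4.
H2bc4: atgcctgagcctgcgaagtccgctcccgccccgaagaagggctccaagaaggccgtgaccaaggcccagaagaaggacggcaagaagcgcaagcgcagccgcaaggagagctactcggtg
H2bc8: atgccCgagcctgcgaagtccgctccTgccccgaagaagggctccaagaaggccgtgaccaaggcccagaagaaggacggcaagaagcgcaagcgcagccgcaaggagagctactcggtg
H2bc21: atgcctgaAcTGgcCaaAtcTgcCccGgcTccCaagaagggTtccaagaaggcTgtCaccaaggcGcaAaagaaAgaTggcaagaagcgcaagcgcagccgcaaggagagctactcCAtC
Over the whole coding region of 381 bases, H2bc4 differed from H2bc8 at 5 bases and from H2bc21 at 50. Among H2B genes of that coding length, 12, H2bc8 included, differed from H2bc4 at 2 to 20 bases and H2bc18 at 42. By coding sequence Hist1h2bq (2 bases) and H2bc11 (4 bases) were closer to H2bc4 than H2bc8 was.

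The stem-loop was searched for after the stop codon of each annotated transcript, as 16 letters (GGNNCTTN followed directly by TNAGNNCC) with a paired stem of 6 bases. It stood in 43 of the 65 genes, and 55 of all 21901 protein-coding genes (0.251%) had it anywhere in a transcript, these 43 included. The variants found in most genes are shown with the stem in capitals.
H1, H2A, H2B and H3 (24 genes): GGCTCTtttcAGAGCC
H1, H2B and H3 (6 genes): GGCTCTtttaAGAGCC
H4 (6 genes): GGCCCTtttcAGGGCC
By class, 4 of 7 H1, 10 of 17 H2A, 9 of 17 H2B, 9 of 12 H3 and 11 of 12 H4 genes held it, 21 to 58 bases after the stop codon. Of the 22 genes without it, 17 had transcript models that ended within 60 bases of the stop codon. The other 5 were H1f0 and the H2B genes H2bc21, H2bc4, Hist1h2bq and Hist1h2br. Their models ran on for 742 to 2192 bases and held from 1 to 5 poly(A) signals. Of the 43 models with a stem-loop, 20 also ran on for more than 100 bases after it. The H2bc4 model has 2 exons and 1156 bases in all, 742 of them after the stop codon.

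Reads from copies that match cannot be assigned to 1 gene, and the deposited values are estimated counts that need not be whole. In the annotated transcripts, 33 of the 65 genes shared at least 50% of their 50-base windows with a transcript of another gene. The 5 genes with counts and no shared window (H1f0, H1f1, H1f5, H1f6 and H2bc21) had whole values in every library. Of the 57 genes with counts and a shared window, 51 had no whole value in any library. H2ac19 shared 100% of its windows with H2ac18, Hist1h2ao 93.5% with Hist1h2ap, and H2bc4 shared 30.1% with any other gene, including 23.1% with H2bc8. Hist1h2br shared 99.8% with Hist1h2bq. Levels of single genes with shared windows, H2B genes included, are therefore uncertain, and each class is also given as a sum. The sum does not cover reads shared with genes outside the list, such as the H2A genes Hist1h2aj and Hist1h2al and the predicted gene Gm20634, which overlaps H2ac18 by 529 bases on the same strand. Annotated transcripts of H2bc4 also shared 50-base windows with many genes outside the list, among them Tcf4, Zeb2, Neat1, Cytip and Nop58. The H2B sum is therefore open to such reads too. The kit does not mark strand, so reads of H2A genes that overlap predicted genes on the other strand cannot be told apart from theirs.

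Among the 12 tested H2B genes, which form dimers with H2A, H2bc4 held 73.6% of the counts of the class. Its share of the summed H2B level was 59.6, 72.8 and 67.3% in the CD55KO libraries and 80.3, 77.1 and 77.3% in the WT libraries. The sum of the 17 H2B genes was 70.9, 77.9 and 72.2 CPM in CD55KO and 135, 110.5 and 103 CPM in WT, without overlap, and was 36.4% lower on average in CD55KO. Without H2bc4, an alternative added after the data were seen, the sum was 28.6, 21.2 and 23.6 CPM in CD55KO and 26.6, 25.3 and 23.3 CPM in WT, and the genotypes overlapped. H2bc8, the closest to H2bc4 in shared 50-base windows, stood at 4.43 ± 1.05 against 4.54 ± 1.14 CPM (log2 fold change -0.03, 95% interval -0.54 to 0.48).

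H2bc6, whose model overlaps that of H1f4 by 450 bases on the same strand, had 4.48 ± 0.817 against 5.06 ± 0.984 CPM. H2bc21 was measured at 3.70, 2.87 and 3.19 CPM in the CD55KO libraries and 3.89, 4.73 and 4.33 CPM in the WT libraries. Its libraries did not overlap, but the difference missed the threshold (adjusted p = 0.634 for a log2 fold change of -0.41 ± 0.21 SE). H2bc21 shares with H2bc4 a model without a stem-loop and with poly(A) signals, and none of the 50-base windows of H2bc21 are shared. The H2bc4 model held 1 such signal, outside its last 50 bases. The H2bc21 model held 3, with a signal in its last 50 bases. Signals were also present in models with a stem-loop, such as those of H1f2, H2ac8 and H4c14. Hist1h2br, the other tested H2B gene with poly(A) signals and no stem-loop in its model, had higher values in CD55KO. It had 3.70, 3.68 and 3.82 CPM in the CD55KO libraries and 2.53, 3.38 and 3.45 CPM in the WT libraries, again without overlap. Hist1h2br did not pass the test (adjusted p = 0.826 for a log2 fold change of 0.25 ± 0.22 SE). Its level is uncertain because nearly all of its windows are those of Hist1h2bq, and none of its values is whole.

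The other tested H2B genes were below 3 CPM in both groups and none passed the test. H2bc11 had 2.48 ± 0.641 against 2.22 ± 0.480 CPM, H2bc3 1.86 ± 0.662 against 1.35 ± 0.388 CPM, H2bc12 1.31 ± 0.472 against 1.26 ± 0.721 CPM and H2bc14 0.698 ± 0.306 against 0.903 ± 0.397 CPM. The lowest were H2bc15 with 0.538 ± 0.263 against 0.532 ± 0.180 CPM, Hist1h2bp with 0.638 ± 0.718 against 0.396 ± 0.298 CPM and H2bc18 with 0.279 ± 0.182 against 0.398 ± 0.168 CPM. In Hist1h2bp and H2bc18 at least 1 library was at or under the level that 3 counts make, which ran from 0.0958 to 0.146 CPM. H2bc1, a testis H2B gene, was at 0 in all libraries, which allows up to that level and covers counting error only.

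**Figure D3:**
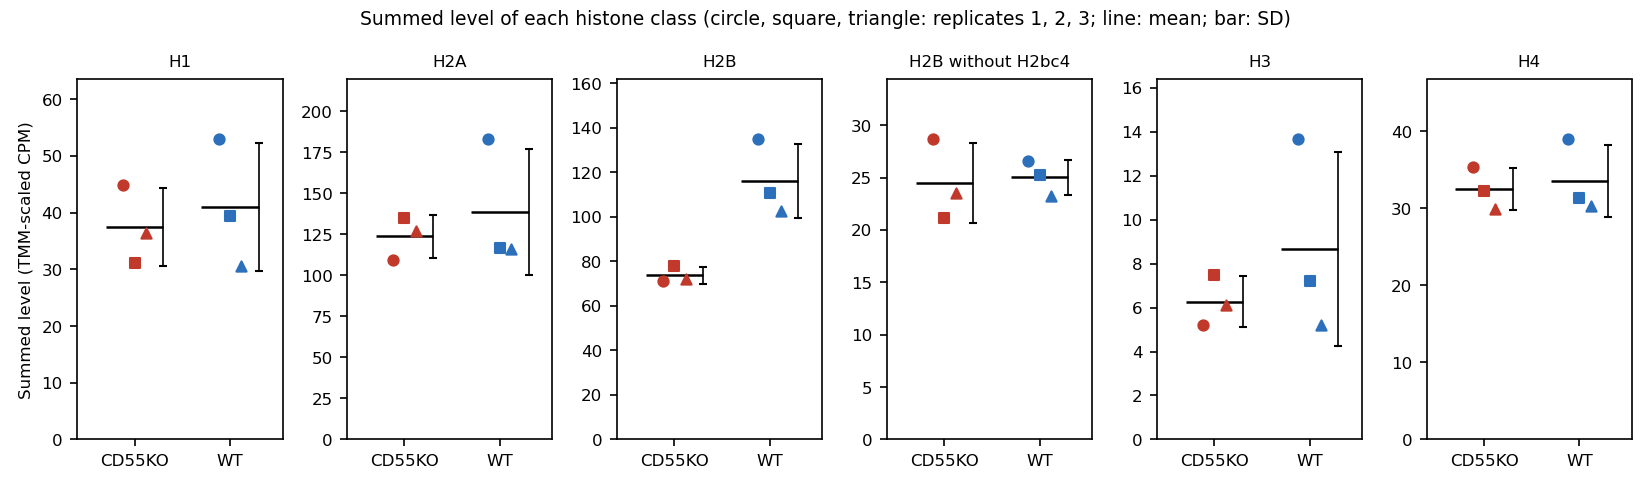
Summed level of the genes of each histone class in each library (TMM-scaled CPM, axes from 0), with the mean (line) and SD (bar) of 3 libraries. The H2B sum separates the genotypes (70.9 to 77.9 against 103 to 135 CPM), the H2B sum without H2bc4 does not, and in WT the circle, replicate 1, is the highest in every panel.

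The 17 H2A genes summed to 109, 135 and 127 CPM in CD55KO and 183, 117 and 116 CPM in WT, which overlap. This class held 42.7% of the family's counts, more than any other. H2ac18 had 47.8, 58.9 and 56.0 CPM in the CD55KO libraries and 63.1, 51.4 and 51.0 CPM in the WT libraries, with the genotypes intermixed (log2 fold change -0.02 ± 0.10 SE). Hist1h2ap had 42.3, 55.3 and 48.1 CPM in the CD55KO libraries and 84.5, 44.8 and 43.1 CPM in the WT libraries. WT replicate 1 was the high one, and the other 5 libraries lay between 42.3 and 55.3 CPM. H2ac19, all of whose 50-base windows are in H2ac18, had 5.93 ± 0.853 against 6.95 ± 1.99 CPM, and H2ac8 had 5.54 ± 0.558 against 5.80 ± 2.64 CPM.

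Lower values in CD55KO without overlap appeared for Hist1h2ao and H2ac13, neither past the adjusted threshold. Hist1h2ao had 2.20, 3.28 and 3.64 CPM in the CD55KO libraries and 7.09, 4.21 and 4.51 CPM in the WT libraries (adjusted p = 0.318 for a log2 fold change of -0.78 ± 0.26 SE). Nearly all of its windows are shared with Hist1h2ap, which overlapped between genotypes. H2ac13 had 0.403, 0.121 and 0.175 CPM in the CD55KO libraries and 1.21, 0.511 and 0.746 CPM in the WT libraries (adjusted p = 0.318 for a log2 fold change of -1.77 ± 0.58 SE), with CD55KO replicate 2 at the level of 3 counts. In H2ac15 the direction was opposite, with 0.550, 0.566 and 0.595 CPM in the CD55KO libraries and 0.291, 0.319 and 0.249 CPM in the WT libraries, also without overlap (adjusted p = 0.628 for a log2 fold change of 0.98 ± 0.50 SE).

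The remaining H2A genes overlapped between genotypes. H2ac20 had 1.62 ± 0.812 against 2.20 ± 0.784 CPM, H2ac11 1.15 ± 0.335 against 1.71 ± 0.508 CPM and Hist1h2an 0.631 ± 0.201 against 0.575 ± 0.397 CPM. H2ac7 had 0.613 ± 0.445 against 0.456 ± 0.152 CPM and H2ac4 0.400 ± 0.0977 against 0.431 ± 0.141 CPM. H2ac6, the neighbour of H2bc4, had 0.807, 1.21 and 0.806 CPM in the CD55KO libraries and 1.12, 1.09 and 1.21 CPM in the WT libraries, with a log2 fold change of -0.28 (95% interval -1.05 to 0.50).

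H2A and H2B genes of the clusters often stand back to back, and H2ac6 and H2bc4 are such a pair. The base before the start of H2bc4 (chr13:23684199-23692908, plus strand) is the last of the 250 bases that precede H2ac6 (chr13:23681467-23683948, minus strand). This stretch, shown because 1 gene of the pair was lower in CD55KO and the other did not pass the test, comes from the RefSeq promoter table (GRCm38.p6, chr13:23683949-23684198, minus strand) and reads toward H2ac6. Capitals mark the octamer ATGCAAAT, a site of the POU factors Oct-1 and Oct-2, the TATA box TATAAA, and CCAAT boxes on either strand (CCAAT or ATTGG).
H2ac6 to H2bc4: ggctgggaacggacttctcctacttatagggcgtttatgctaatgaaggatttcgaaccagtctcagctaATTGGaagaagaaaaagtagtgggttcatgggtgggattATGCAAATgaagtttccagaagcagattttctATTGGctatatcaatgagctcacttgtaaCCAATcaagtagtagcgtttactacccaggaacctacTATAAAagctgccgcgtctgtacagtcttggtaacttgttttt
The octamer begins at base 110, the TATA box at base 208, and the CCAAT boxes at bases 71, 142 and 171. The TATA box lies 37 bases before the start of H2ac6, and the octamer 109 bases before that of H2bc4. Promoter entries of 300 bases were found for 60 of the 65 genes (61 entries), and that of H2bc4 was missing. On either strand, the octamer was in 13 of the 61 (21.3%), all of H2A or H2B genes, and in 1.74% of all 32851 promoters. The CCAAT box was in 52 (85.2%) against 37.4%, and the TATA box in 34 (55.7%) against 13.6%. Entries of back-to-back genes overlap, as those of H2ac8 and H2bc8 do, so the same site can be counted for both genes. A match of letters is a description and not a measured binding site.

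The 12 H3 genes, whose product pairs with H4 at the centre of the nucleosome, were the lowest class with 2.39% of the family's counts. They summed to 5.21, 7.48 and 6.13 CPM in CD55KO and 13.7, 7.22 and 5.19 CPM in WT. H3c13, which had the most H3 counts, was at 0.513, 1.86 and 1.44 CPM in the CD55KO libraries and 6.56, 1.95 and 1.39 CPM in the WT libraries. WT replicate 1 was more than 3 times any other library, and the difference did not pass (adjusted p = 0.717 for a log2 fold change of -1.35 ± 0.75 SE). H3c4 did not overlap between genotypes, at 0.661 ± 0.0586 against 0.954 ± 0.0893 CPM (adjusted p = 0.781 for a log2 fold change of -0.53 ± 0.39 SE). H3c15 had 0.480 ± 0.337 against 1.03 ± 0.713 CPM, H3c6 1.25 ± 0.185 against 1.28 ± 0.421 CPM and H3c1 1.36 ± 0.132 against 1.05 ± 0.273 CPM. In H3c15, CD55KO replicate 1 was at the level of 3 counts (0.110 CPM) and WT replicate 1 was the highest library (1.80 CPM).

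The 12 H4 genes summed to 35.4, 32.3 and 29.98 CPM in CD55KO and 39.0, 31.4 and 30.4 CPM in WT, with overlap. H4c4 led the class with 12.7, 13.6 and 9.77 CPM in the CD55KO libraries and 17.2, 10.2 and 12.3 CPM in the WT libraries (log2 fold change -0.13). H4c9 was alike across libraries at 7.46 ± 0.835 against 7.32 ± 0.0529 CPM, with a log2 fold change of 0.03 ± 0.16 SE. H4c14, the chromosome 3 gene of the class, had whole counts in every library. It had 4.99, 2.79 and 2.73 CPM in the CD55KO libraries and 5.10, 5.11 and 4.58 CPM in the WT libraries, where CD55KO replicate 1 lay among the WT libraries (adjusted p = 0.605 for a log2 fold change of -0.49 ± 0.24 SE). H4c8 had 4.25 ± 0.480 against 3.44 ± 0.922 CPM and H4c3 2.90 ± 0.479 against 2.69 ± 0.661 CPM. Hist1h4m had 1.11 ± 0.962 against 1.03 ± 0.210 CPM and was at 0 in CD55KO replicate 2, where Hist1h4n, with group means of 0.660 ± 0.867 against 0.305 ± 0.141 CPM, had its highest value of 1.66 CPM. In CD55KO replicate 1, Hist1h4n was at the level of 3 counts (0.110 CPM). The class sum does not depend on how reads were split between Hist1h4m and Hist1h4n.

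The 7 H1 genes summed to 44.8, 31.2 and 36.4 CPM in CD55KO and 52.9, 39.5 and 30.6 CPM in WT, with overlap. H1f2 held 52.1% of the counts of the class, with 20.1, 17.6 and 19.4 CPM in the CD55KO libraries and 27.2, 21.2 and 16.8 CPM in the WT libraries (log2 fold change -0.18). H1f4 had 11.3 ± 3.66 against 11.6 ± 3.04 CPM, H1f5 2.26 ± 0.631 against 2.89 ± 1.83 CPM and H1f3 2.58 ± 1.22 against 2.02 ± 0.692 CPM. H1f1 had 0.824 ± 0.168 against 0.993 ± 0.392 CPM. H1f0, the linker histone of cells that have left the cycle, had 1.45 ± 0.375 against 1.75 ± 0.560 CPM, so neither the S phase H1 genes nor H1f0 passed the test. H1f6, the testis gene, held 1 count in all 6 libraries together.

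Per length of exon, the order of levels in WT was led by Hist1h2ap at 119 ± 48.5 CPM per kb, H2ac18 at 94.1 ± 11.7 and H2bc4 at 78.6 ± 13.2 (SD, n = 3). The libraries of Hist1h2ap overlapped those of H2ac18, and those of H2ac18 overlapped H2bc4, whereas H2bc4 lay above the next gene, H1f2, in every library. In CD55KO the same 3 genes led, with H2bc4 at 42.6 ± 6.26 CPM per kb below the other two, at 101 ± 13.6 and 92.5 ± 9.84, and all CD55KO libraries of H2bc4 lay below those of both. The next genes, H1f2, H2ac19 and H4c4, were at 11.6 to 13.9 CPM per kb in WT, and H1f3 was the lowest tested gene at 0.272. The models of Hist1h2ap and H2ac18 end 3 and 35 bases after the stem-loop, and the H2bc4 model holds none.

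Summed over all 65 genes, the level was 266, 284 and 271 CPM in CD55KO and 423, 305 and 285 CPM in WT, without overlap by a narrow margin (284.1 CPM in the highest CD55KO and 284.8 CPM in the lowest WT library). The log2 ratio of these sums was -0.30, and -0.11 without WT replicate 1. Without H2bc4 (added after the data were seen) it was 223, 227 and 223 CPM in CD55KO and 315, 220.0 and 206 CPM in WT, so that 5 libraries lay between 206 and 227 CPM and WT replicate 1 at 315 CPM. In 21 of the 43 tested genes, WT replicate 1 held the highest value of the 6 libraries. This is also the library with the highest level of the S phase and mitosis genes.

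**Figure D4:**
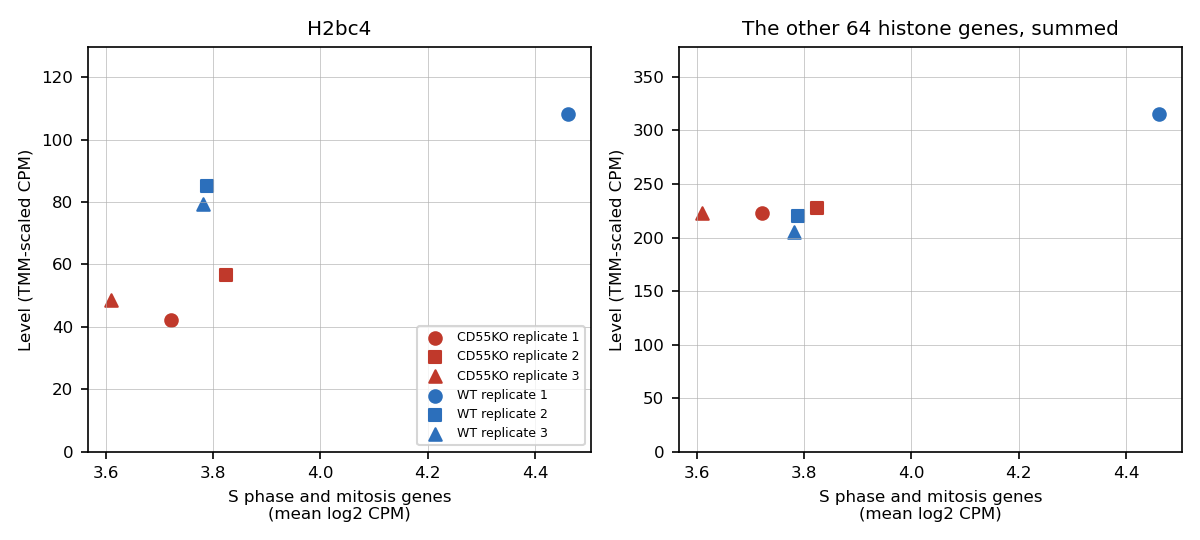
Level of H2bc4 (left) and summed level of the other 64 histone genes (right), in TMM-scaled CPM from 0, against the mean log2 CPM of 36 S phase and mitosis genes, with 1 point per library. On the right WT replicate 1 stands alone at 315 CPM. On the left the 3 CD55KO libraries (42.3 to 56.7 CPM) lie below the 3 WT libraries (79.3 to 108 CPM). The S phase and mitosis means were 3.72, 3.82 and 3.61 in CD55KO and 4.46, 3.79 and 3.78 in WT. The part of cell division in the H2bc4 difference was not tested.

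The S phase and mitosis genes were all tested, none was called, and 8 of 36 had an unadjusted p under 0.05, beside 8.6% of all genes. Their log2 fold changes were negative in 34 of 36, beside 49.6% of all genes, with a median of -0.30 against 0.00 for all genes. WT replicate 1 weighs on these values: the list mean was 4.46 log2 CPM there and 3.79 and 3.78 in WT replicates 2 and 3. In CD55KO it was 3.72, 3.82 and 3.61, so the genotypes overlapped. Mcm5, a subunit of the replicative helicase, had 47.0 ± 4.18 against 60.4 ± 9.86 CPM (adjusted p = 0.275 for a log2 fold change of -0.36 ± 0.11 SE), and Mcm2, another subunit, 44.6 ± 4.47 against 54.6 ± 8.52 CPM (adjusted p = 0.436 for a log2 fold change of -0.29 ± 0.11 SE). With the mean of this list as a covariate, 16 of 43 histone genes had a negative log2 fold change and their median was 0.09, while H2bc4 kept its call as given above.

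A list of 20 variant and other histone genes, taken as replication-independent, had 9 tested and none called. In it, 9 genes were at 0 in every library, among them H2bc1, which both lists hold. H2ax, whose product is phosphorylated at DNA breaks and whose message can end in a stem-loop or a poly(A) tail, came closest, with 49.5, 54.8 and 61.4 CPM in the CD55KO libraries and 87.5, 67.7 and 75.5 CPM in the WT libraries and no overlap (adjusted p = 0.0582 for a log2 fold change of -0.48 ± 0.10 SE). H2az2, an H2A.Z gene, had 50.1 ± 3.90 against 56.6 ± 6.46 CPM (adjusted p = 0.648 for a log2 fold change of -0.18 ± 0.09 SE), and H2az1 311 ± 34.1 against 329.7 ± 37.1 CPM. H3f3b and H3f3a, which encode H3.3, had 1230.0 ± 198 against 1330.3 ± 165 CPM and 342 ± 38.2 against 334 ± 8.38 CPM. H3f3c, a related copy, had 56.4 ± 6.01 against 58.0 ± 2.65 CPM. Macroh2a1 had 74.7 ± 2.16 against 70.3 ± 3.20 CPM, H2aj 130.3 ± 16.3 against 124 ± 6.61 CPM and Cenpa, the centromeric H3, 16.4 ± 0.554 against 17.6 ± 2.02 CPM. These genes together reached 2171 to 2590 CPM per library, against 266 to 423 CPM for the 65 genes, with no correction for length.

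Of genes for histone transcription and 3' end processing, 32 were tested and none was called, with 1 at an unadjusted p under 0.05, a smaller share than the 8.6% of all genes. Srrt, which encodes the cap-binding partner ARS2, had 88.7 ± 2.30 against 106 ± 6.45 CPM (adjusted p = 0.193 for a log2 fold change of -0.26 ± 0.07 SE). Npat, the coactivator at histone locus bodies, had 15.9 ± 0.414 against 13.6 ± 0.470 CPM (adjusted p = 0.605 for a log2 fold change of 0.23 ± 0.11 SE). Of 24 histone chaperone genes, none was called and 2 had an unadjusted p under 0.05, a share near the 8.6% of all genes. Asf1b, the H3-H4 chaperone of dividing cells, had 23.3 ± 3.64 against 34.6 ± 5.85 CPM without overlap (adjusted p = 0.122 for a log2 fold change of -0.57 ± 0.13 SE), and Mcm2, listed there too, is given above.

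Among markers of activated B cells, Xbp1 and Gcsam were called lower in CD55KO. Over all genes tested, 0.399% were called in either direction and 0.261% as lower in CD55KO. Of 9 plasma cell markers, 8 were tested and 1 was called: Xbp1, the transcription factor of secretory differentiation, was lower in CD55KO (71.6, 80.0 and 83.8 CPM in the CD55KO libraries and 129, 124 and 102 CPM in the WT libraries; adjusted p = 0.00471 for a log2 fold change of -0.59 ± 0.09 SE). Log2 fold changes were negative in 6 of the 8 tested plasma cell markers and positive in 2, beside 49.6% negative of all genes. The list, Xbp1 included, summed to 160 to 176 CPM in CD55KO and 197 to 247 CPM in WT, without overlap. Of 9 germinal centre markers, all were tested and 1 was called, Gcsam, which was lower (1.06 ± 0.476 against 3.74 ± 1.26 CPM; adjusted p = 0.0343 for a log2 fold change of -1.81 ± 0.36 SE). In that list, log2 fold changes were negative in 8 and positive in 1, beside 49.6% negative of all genes. Its sum was 21.1 to 31.4 CPM in CD55KO and 76.5, 27.7 and 62.4 CPM in WT replicates 1 to 3. No marker of either list was at 0 in all libraries. Their part in the lower H2bc4 was not tested, and in bulk RNA fewer cells of a type and less RNA per cell cannot be told apart.

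No marker of other cells was called. Macrophage and monocyte markers summed to 32.6 to 38.9 CPM in CD55KO and 23.1 to 28.7 CPM in WT, higher in CD55KO, but the mean of their log2 CPM overlapped (0.38 to 1.60 and 0.27 to 1.53). Of 7 tested, 4 had a positive and 3 a negative log2 fold change. Spic, the regulator of red pulp macrophages that B cells also express, had 11.8 ± 1.42 against 7.27 ± 1.15 CPM (adjusted p = 0.0901 for a log2 fold change of 0.69 ± 0.16 SE) and Cd68 16.1 ± 0.778 against 11.8 ± 1.27 CPM (adjusted p = 0.209 for a log2 fold change of 0.45 ± 0.12 SE). B-1 cell markers summed to 33.3 to 51.3 and 31.7 to 48.6 CPM, with members in both directions: S100a6 had 9.31, 14.97 and 7.25 CPM in the CD55KO libraries and 5.20, 6.07 and 5.44 CPM in the WT libraries, without overlap (adjusted p = 0.162 for a log2 fold change of 0.91 ± 0.23 SE). Anxa2 had 5.83, 7.89 and 7.25 CPM in the CD55KO libraries and 15.4, 6.67 and 15.3 CPM in the WT libraries, with overlap (adjusted p = 0.534 for a log2 fold change of -0.83 ± 0.32 SE).

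T cell markers summed to 41.5 to 48.9 and 39.3 to 44.3 CPM, nearly all of it Lck, with Cd3d at 0.587 ± 0.183 against 0.277 ± 0.170 CPM and Trac at 0.512 ± 0.0800 against 0.325 ± 0.134 CPM. Follicular B cell markers summed to 1557 to 1633 and 1418 to 1636 CPM, with Ccr7 at 156 ± 12.3 against 161 ± 10.7 CPM. All 9 erythroid genes summed above were tested and had negative log2 fold changes, beside 49.6% of all genes. Of these, Tfrc, which dividing cells also express, had 7.99 ± 1.29 against 10.7 ± 2.80 CPM and Slc4a1 8.44 ± 6.98 against 13.6 ± 21.1 CPM. Neutrophil markers reached at most 0.391 CPM in sum, with 3 of 6 at 0 everywhere. Platelet markers reached at most 1.26 CPM, with Itga2b, the tested one, at 0.340 ± 0.200 against 0.348 ± 0.258 CPM. Dendritic and NK cell markers summed to between 3.67 and 6.07 CPM, with Zbtb46 at 1.32 ± 0.257 against 1.68 ± 0.346 CPM, Siglech at 0.593 ± 0.248 against 0.526 ± 0.190 CPM, and Clec9a and Ncr1 at 0.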

How the data were processed

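The authors deposited estimated counts for each gene, with no scaling. DRAGEN, edgeR and limma are named in the submitters' processing notes, with no roles or versions. The aligner, build and annotation were not given in the sources used here. Per the labels' protocols, the library kit was SMARTer Ultra Low RNA. Of 55774 rows, 287 repeats of an ID were removed, and counts were rounded. Genes passing edgeR's filterByExpr (minimum count 10, total 15) were tested in edgeR 4.0.16 (R 4.3.3) by the robust quasi-likelihood method, with TMM scaling and genotype as the one term. P-values were adjusted over all 13794 genes at a threshold of 0.05. CPM values are TMM-scaled, and SDs are over 3 libraries. Positions and transcripts came from GENCODE M21 by gene ID (99.4% found), and promoters from RefSeq. The histone genes, gene lists and tests were chosen with earlier results of these data known. Named are all tested histone genes, untested ones with 30 counts or more, Cd55 and, of other lists, called genes or those with the smallest p, of which 1 is not reported here. Cr2, Cd1d1, H4c12, H3c10, Lck, Clec9a and Ncr1 were named after their values were seen. The printed relative of H2bc4 was chosen by shared transcript windows, since no protein sequences were used, and H2bc21 was added as a contrast. Alternatives changed the scaling, filter, tool (DESeq2 1.42.0, limma-voom in limma 3.58.1), rounding, covariate and replicate block, or left out a library.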

Additional observations from a re-analysis of the deposited data

How the results depend on the processing

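The call of H2bc4 was kept under the other scalings, filters and tools, with adjusted p from 7.9e-22 without a count filter to 0.0411 with library totals only. Without the filter the log2 fold change was -0.88, as in the main fit. Its SE was 0.085 there against 0.13 in the main fit, so the lower adjusted p came with no larger difference. Leaving out 1 library gave -1.0 to -0.74 with adjusted p from 0.00314 to 0.144, and the number of histone genes called was then 0 to 1. With the replicate number as a block it was -0.88 with an adjusted p of 0.0779, so that 0 histone genes were called. The labels do not say that the numbers pair libraries, and same-numbered libraries did not deviate together (correlations 0.075, -0.124 and 0.172). No other histone gene was called under any alternative run. DESeq2 gave 13 tested histone genes no adjusted p. Over all genes, 232 were called without a count filter, 138 by DESeq2 and 37 to 53 with a library left out. With at least 50 counts in 3 libraries, 15 of 21 histone genes were negative, and with the S phase covariate 16 of 43.

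The sign of 26 uncalled histone genes turned in at least 1 alternative. With the covariate, log2 fold changes turned to 0.10 (H1f0), 0.030 (H1f2), 0.19 (H1f4), 0.39 (H1f5), 0.11 (H2ac18), 0.058 (H2ac19), 0.44 (H2ac8), 0.22 (Hist1h2ap), 0.16 (H2bc14), 0.038 (H2bc18), 0.14 (H2bc8), 0.18 (H4c4) and -0.31 (Hist1h4m). With the replicate block they turned to 0.019 (H2ac8), -0.035 (H2bc15), 0.0024 (H3c6) and -0.28 (Hist1h4m), and with limma-voom to 0.094 (H2ac8), -0.043 (H2bc15) and -1.35 (Hist1h4m). With a library left out, the ranges that cross 0 were -0.45 to 0.012 for H1f0, -0.55 to 0.033 for H1f1, -0.34 to 0.0031 for H1f2, -0.034 to 0.66 for H1f3, -0.32 to 0.16 for H1f4, -0.58 to 0.31 for H1f5, -0.088 to 0.083 for H2ac18, -0.35 to 0.031 for H2ac19, -0.34 to 0.16 for H2ac4, -0.25 to 0.86 for H2ac7, -0.28 to 0.37 for H2ac8, -0.059 to 0.31 for H2bc11, -0.25 to 0.64 for H2bc12, -0.74 to 0.049 for H2bc14, -0.40 to 0.33 for H2bc15, -0.22 to 0.13 for H2bc8, -0.25 to 0.26 for H3c6, -0.062 to 0.28 for H4c3, -0.29 to 0.098 for H4c4, -0.063 to 0.10 for H4c9, -0.28 to 0.72 for Hist1h2an, -0.41 to 0.14 for Hist1h2ap, -0.78 to 1.33 for Hist1h2bp, -0.31 to 0.67 for Hist1h4m and -0.89 to 1.60 for Hist1h4n. The class sums of H1, H2A, H3 and H4 crossed 0 in the same way (the highest were 0.10, 0.09, 0.02 and 0.08), and that of H2B stayed between -0.73 and -0.53. The cause of these changes was not tested.

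Groups of 3 libraries, the weight of WT replicate 1 in the median and the number of negative values, low counts and matching copies limit the histone values: 12 of the 43 tested genes were under 1 CPM in both genotypes.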
